A study of Mus musculus with 4 samples.

Results

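Neural progenitors and neuroblasts were examined in single-cell transcriptomes of the adult mouse brain. They were picked by detected genes (at least 1 unique molecular identifier, UMI, a tag that marks a single RNA molecule). A cell needed at least 3 of 7 genes, Dlx1, Dlx2, Sox11, Dcx, Dlx6os1, Igfbpl1 and Cd24a, with at least 2 of them among Dlx1, Dlx2, Dcx and Igfbpl1. It could hold at most 1 of 6 genes of other cells, namely Cldn5 and Flt1 (endothelium), Mog (oligodendrocytes), Aqp4 (astrocytes), and Tmem119 and P2ry12 (microglia). Of 10067 cells with at least 400 detected genes and at most 20% mitochondrial UMIs, 101 met this rule, or 1.00%.

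The donors were 4 C57BL/6J mice, all male and at postnatal day 90, whose whole brain was used and for which the labels name no genetic change. All brains were dissociated with enzymes, and each animal gave 1 library of 10x Genomics 3′ version 2 chemistry. In 2 animals the tissue met no inhibitors. In the other 2, actinomycin D and triptolide (inhibitors of transcription) were present from perfusion on, and anisomycin (an inhibitor of translation) was added for dissection and digestion. The 4 libraries held 5134359 to 7529804 UMIs, the labels give them 1 batch, and 67 barcodes occurred in more than 1 library, 0 of them a member.

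In the adult mouse brain, new neurons are made mainly in the subventricular zone of the lateral ventricles and in the hippocampal dentate gyrus. In the subventricular zone, astrocyte-like stem cells give rise to fast-dividing transit-amplifying progenitors, which become neuroblasts that migrate through the rostral migratory stream and mature into inhibitory interneurons of the olfactory bulb. The homeodomain factors Dlx1 and Dlx2 direct this inhibitory lineage, and the microtubule-binding protein doublecortin, encoded by Dcx, is the classical label of migrating neuroblasts.

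The members numbered 28 and 24 in the animals without inhibitors and 35 and 14 in those with inhibitors. They made up 1.25% and 0.851% of the filtered cells without inhibitors, and 1.65% and 0.487% with them. The exact binomial 95% intervals were 0.830% to 1.80%, 0.546% to 1.26%, 1.15% to 2.28% and 0.266% to 0.815%, in that order, and cover counting error only. The 2 animals with inhibitors thus held the highest and the lowest share, and the animals without lay between them. Without inhibitors the mean was 1.05% ± 0.279, and with them it was 1.07% ± 0.820 (SD, 2 animals in each group, n = 2; exact permutation test, two-sided, p = 1.0). With 2 animals against 2 this test cannot give a p below 0.333. In such a dissociation, a lower share can come from fewer such cells in the brain, from lower recovery or from more cells of other types, which cannot be told apart here.

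**Figure D1:**
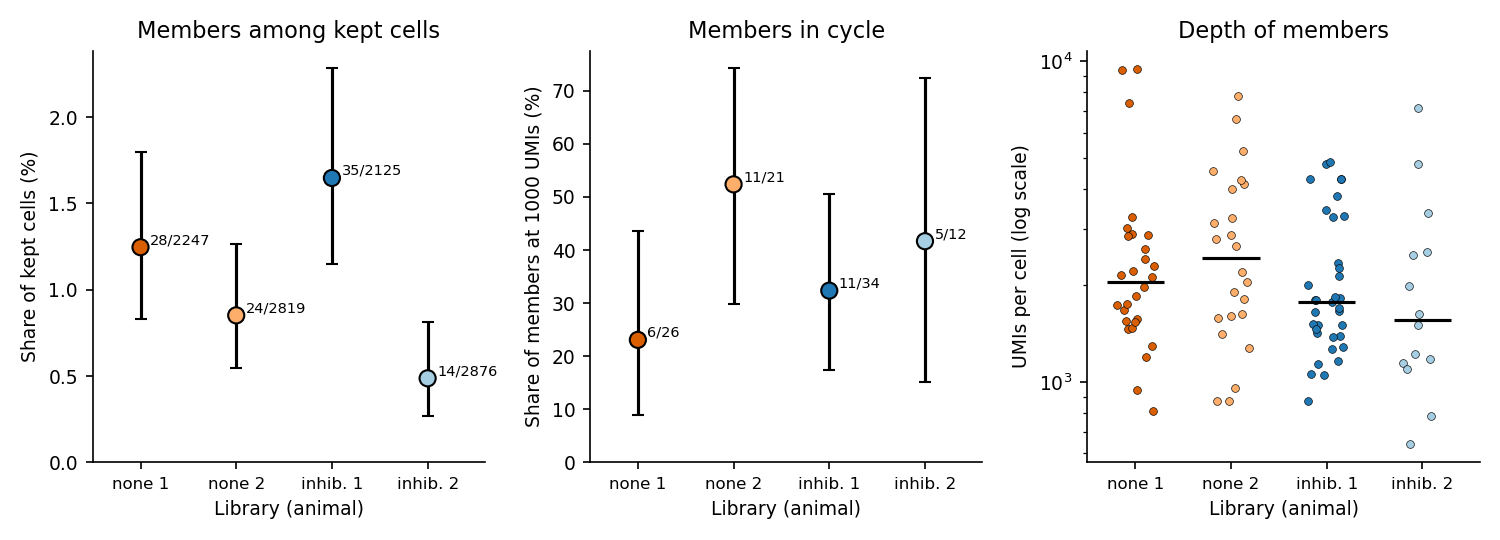
Share of filtered cells that were members (left, %, with exact binomial 95% intervals and counts), share of members in cycle at a common depth of 1000 UMIs (middle, %, same intervals) and UMIs per member (right, log scale, 1 point per cell, line at the median) in the libraries without ("none") and with ("inhib.") inhibitors. The animals with inhibitors hold both the highest and the lowest share of members, 1.65% and 0.487%.

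Members were as deep as other cells or somewhat deeper. Their median was 1838 UMIs per cell, against 1597 over all filtered cells, and they ran from 642 to 9439. By library, the median was 2051.5 and 2428 UMIs without inhibitors, and 1779 and 1565 with them. Median mitochondrial shares of members lay between 5.23% and 6.35%. Doublet scoring against simulated pairs marked 256 of the filtered cells (2.54%), and 0 of them were members. Most members passed the rule with room to spare, since 6 held 3 of the 7 genes, 16 held 4, 27 held 5, 31 held 6 and 21 held all 7. None of the 6 excluded genes was detected in 81 members, and 20 held 1 of them.

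The cells at the edge of the rule differed in content. The 6 members with exactly 3 of the genes had a pooled Sox11 level of 935 CPM (counts per 1000000 UMIs) and a Snap25 level of 935 CPM, whereas the 21 members with all 7 genes had 3822 and 54.3 CPM. Snap25 encodes a synaptic protein of mature neurons. Just outside the rule lay 6 cells with only 2 of the genes, both of the 4 required ones, whose pooled Sox11 level was 0 CPM and Meg3 level 8027 CPM. A further 6 cells held at least 3 of the 7 genes but fewer than 2 of the required ones, at 2876 CPM of Sox11, and 4 held at least 2 excluded genes, at a median of 8351.5 UMIs.

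The genes of the rule are described without a test, since they chose the cells. On the GRCm38 assembly (GENCODE M21 annotation), Dlx1 (ENSMUSG00000041911) lies on the plus strand of chromosome 2 from 71528113 to 71533981, and its neighbour Dlx2 (ENSMUSG00000023391) on the minus strand from 71543408 to 71546754. Dcx (ENSMUSG00000031285) lies on chromosome X from 143855842 to 143933311, Sox11 (ENSMUSG00000063632) on chromosome 12 from 27334264 to 27342574, and Igfbpl1 (ENSMUSG00000035551) on chromosome 4 from 45809468 to 45826923. Cd24a (ENSMUSG00000047139) lies on chromosome 10 from 43578284 to 43584265. Dlx6os1 (ENSMUSG00000090063) is an antisense RNA on the minus strand of chromosome 6 from 6820189 to 6871592, and the coding gene Dlx6 lies within this stretch on the other strand, from 6863334 to 6868568.

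Sox11, a transcription factor of immature neurons, was the most widely detected of the 7, in 94 of 101 members (93.1%) against 2.05% of all other filtered cells. Its level was 2771 and 3037 CPM in the members without inhibitors and 3302 and 3612 CPM in those with them. Igfbpl1, an insulin-like growth factor binding protein relative and a marker of immature neurons, was found in 83.2% of members and Cd24a, a surface glycoprotein, in 80.2%. Dcx, Dlx2, Dlx6os1 and Dlx1 were found in 74.3%, 72.3%, 71.3% and 70.3% of members. Outside the members these 4 genes and Igfbpl1 were each seen in 0.291% to 0.542% of cells and Cd24a in 3.36%, a range that also covers free RNA in the droplets. Dlx1 reached 528, 777, 738 and 634 CPM in the members of the 4 libraries (without inhibitors first), and Dlx2 646, 691, 816 and 665 CPM. Both factors were present in members of every animal, and the groups overlapped. Dcx ran from 412 to 738 CPM and Igfbpl1 from 868 to 1372 CPM. The excluded genes were detected in 0.990% to 6.93% of members, against 10.4% to 33.9% of the other cells.

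The label was checked against genes that the rule did not use, here factors of the inhibitory forebrain lineage. Among 16 transcription factors of interneuron lineages, 15 had at least 1 UMI in the members, and Isl1, a factor of striatal and motor neurons, had 0. Some others were sparse: Dlx6 had 7 UMIs, and Zfhx3, a zinc-finger homeobox factor, was found in 4.95% of members and 21.1% of other cells, at 28.9 ± 28.1 and 144 CPM. Sp8 and Sp9, zinc-finger factors of olfactory bulb interneurons, averaged 379 ± 91.7 and 503 ± 80.2 CPM (SD over 4 animals), against means of 2.75 and 1.19 CPM in all other cells. Meis2, a homeobox factor of subventricular neuroblasts, was detected in 82.2% of members and 4.74% of other cells. Sox4, a relative of Sox11, was detected in 92.1% and 15.1%. For each of these 4 factors, the share of members exceeded that of microglia, astrocytes and mature neurons in the pooled cells, a contrast that rests on the rule and was not tested.

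Part of the members had begun to express the machinery of GABA synthesis. Gad2 and Gad1, which encode the enzymes that make GABA, were detected in 45 and 38 of the 101 members. Gad2 stood at 369, 331, 272 and 127 CPM in the 4 libraries and Gad1 at 356, 130, 375 and 95.1 CPM. Slc32a1, the vesicular GABA transporter, was found in 17 members. The rule uses Dlx1, Dlx2 and Dlx6os1 of the inhibitory lineage, so a scarcity of excitatory genes can in part be set by the choice of cells. Most genes of the excitatory lineage were close to absent. Of 9 such genes, Tbr1, Neurog2, Slc17a7 and Slc17a6 had 0 UMIs among the 145274 UMIs of members without inhibitors and the 108792 of those with them, so that the limit that a count of 0 allows (3 counts) was 20.7 CPM without and 27.6 CPM with inhibitors. Eomes, a factor of intermediate progenitors of excitatory neurons, had 4 UMIs in 3 members, and Neurod1 3 UMIs in a single member. Prox1, a factor of dentate granule cells that olfactory bulb progenitors also express, was the exception with 29 UMIs in 19 members, 121 ± 39.8 CPM. With Prox1, the 9 genes together averaged 156 ± 69.0 CPM in members and 50.8 ± 13.3 CPM in all other cells. In microglia, astrocytes and mature neurons the sum averaged 23.3, 25.8 and 831 CPM.

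Immature cytoskeletal genes were the most abundant of the lists. Their 14 genes together reached 24527 and 25173 CPM without and 26764 and 23511 CPM with inhibitors, against a mean of 3093 CPM in all other cells and 4958 CPM in mature neurons. Tubb3, the neuronal beta-tubulin, averaged 1413 ± 289 CPM in members and 28.6 CPM in other cells. Stmn1 and Tuba1a, a regulator and a subunit of microtubules, averaged 4748 ± 621 and 4146 ± 436 CPM, and the actin-binding thymosin gene Tmsb10 7733 ± 1115 CPM. Marcksl1, which links the membrane to actin, varied little among animals, at 1992, 2101, 1877 and 2028 CPM. Of the adhesion and guidance genes, Ncam1, the protein that carries polysialic acid on migrating neuroblasts, was found in 90.1% of members. Nrxn3, a presynaptic adhesion protein, was found in 80.2%, and Robo2, a receptor for the repellent Slit proteins that steer neuroblasts, in 38.6%.

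**Figure D2:**
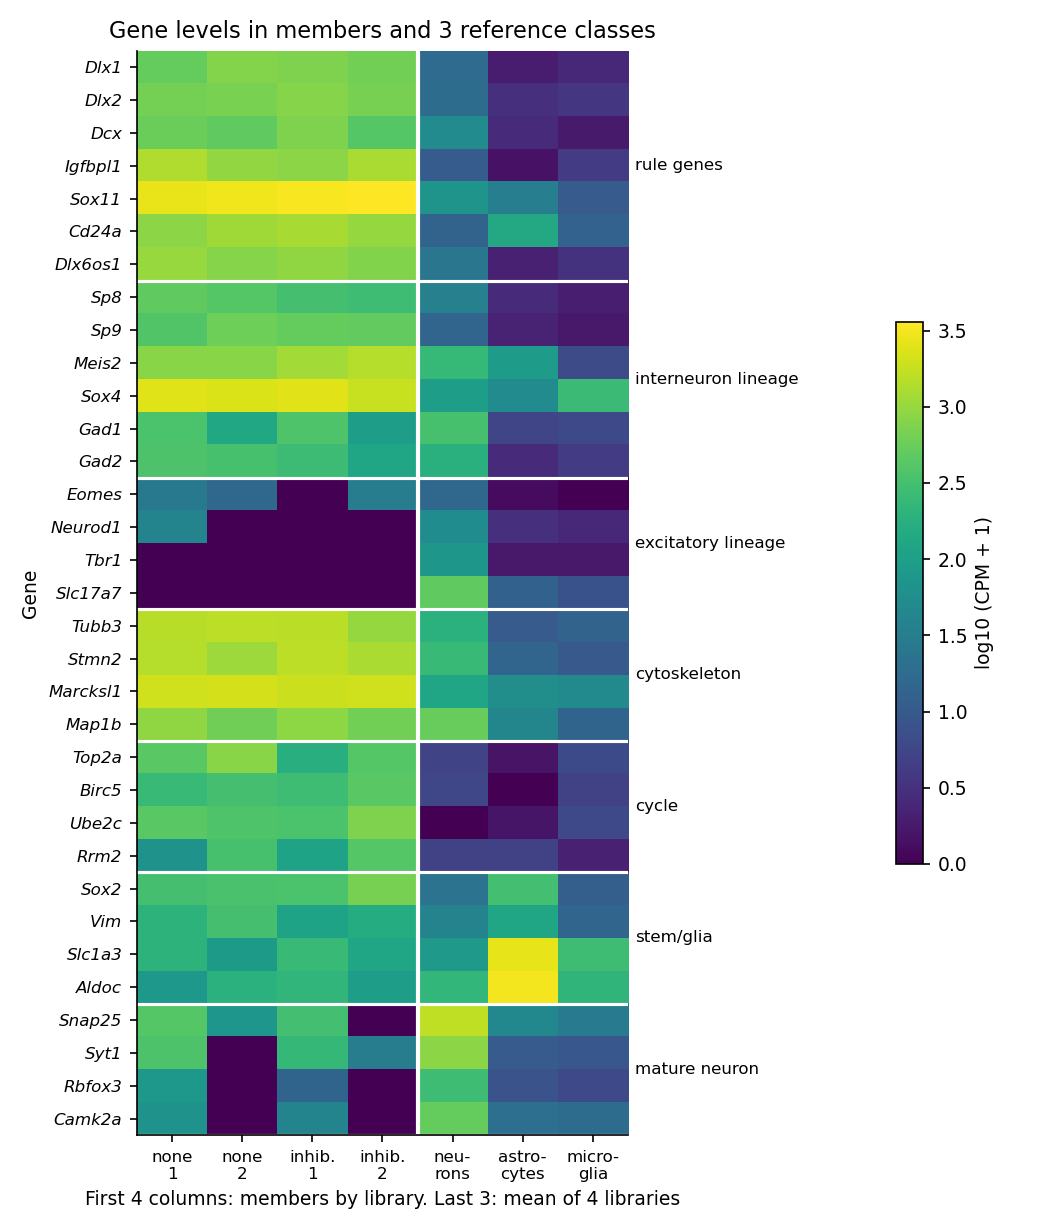
Levels of rule genes and of genes of 6 lists as log10 (CPM + 1), with the members of each library in the first 4 columns and the mean of 4 libraries for mature neurons, astrocytes and microglia in the last 3. Interneuron-lineage and cytoskeletal genes are high in members of all 4 libraries, and Slc1a3 and Aldoc are highest in astrocytes. Each excitatory-lineage gene shown has at most 4 UMIs over all members.

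Outside the rule, the 20 genes with the largest ratio of CPM in members over all other filtered cells included Sp9, Ube2c, Birc5, Pclaf, Top2a, Nusap1, Sp8, Lockd, Mex3a, Cenpf, Tox3, Tiam2, Cdca7, Tubb3, Elavl4, Hmgb3, Cenpa, Lmnb1 and Gad2. They were chosen for this ratio, among genes of at least 100 CPM in the members of each library, so it is a description. The ratio was 423 for Sp9 and 40.8 for Gad2. The largest group among them acts in cell division: Top2a untangles DNA, Ube2c, Birc5, Nusap1, Cenpf and Cenpa act in mitosis, and Pclaf binds the replication clamp. Elavl4, a neuronal RNA-binding protein, averaged 421 ± 99.5 CPM, and the RNA-binding protein gene Mex3a was even across animals at 198, 288, 246 and 253 CPM.

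Dividing cells were therefore counted at a common depth. Each member was thinned at random to 1000 UMIs, which left out 8 shallower members, and a member counted as in cycle when it held at least 2 of 40 genes of S phase and G2/M. This was so in 33 of 93 members (35.5%, exact binomial 95% interval 25.8% to 46.1%). By the same count, 142 of 2875 microglia (4.94%), 57 of 1835 astrocytes (3.11%) and 6 of 140 mature neurons (4.29%) were in cycle, which gives the level in cells that rarely divide. The members fell at the 2 ends of the scale, since 60 held 0 or 1 cycle gene and 21 held 6 or more, up to 15, while 2 held 4 or 5. A further 10 lay close to the limit with 2 or 3 genes. Of the 33 members in cycle, 14 held more S-phase than G2/M genes, 17 held more G2/M genes and 2 held as many of each.

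The share in cycle was 6 of 26 members (23.1%) and 11 of 21 (52.4%) without inhibitors, and 11 of 34 (32.4%) and 5 of 12 (41.7%) with inhibitors. The animals without inhibitors thus held the lowest and the highest share. With at least 3 cycle genes required, the shares were 11.5% and 52.4% without and 23.5% and 41.7% with inhibitors, and with 2 genes at 500 UMIs per cell they were 14.3% and 45.8% against 22.9% and 35.7%. The means were 37.7% ± 20.7 and 37.0% ± 6.59 (SD, n = 2 each; exact permutation test, two-sided, p = 1.0). Before thinning, some genes of both phases showed a like spread, and others did not. Hmgb2, a chromatin protein of dividing cells, stood at 1267 and 2504 CPM without and 1139 and 2567 CPM with inhibitors. Rrm2, a subunit of the enzyme that makes DNA precursors, stood at 66.0 and 331 CPM against 117 and 412 CPM. In Hmgb2 and Rrm2 the animals of a group lay further apart than the group means. Cenpa stood at 396 and 273 CPM without and 285 and 190 CPM with inhibitors. Cenpf stood at 303 and 302 against 181 and 317 CPM. Top2a stood at 449 and 835 against 168 and 412 CPM, and its groups did not overlap. Over all 1263 genes tested between the groups, the CPM of 375 (29.7%) did not overlap.

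**Figure D3:**
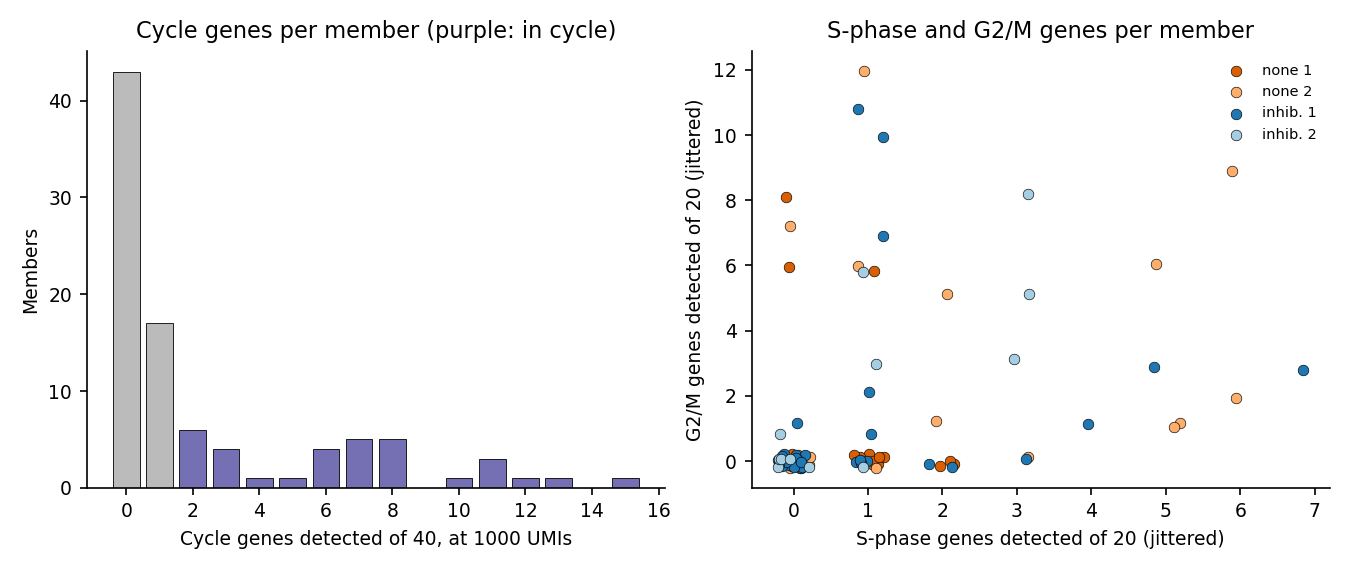
Number of members by how many of 40 cycle genes they held at 1000 UMIs (left, bars from 0, purple from 2 genes up), and S-phase against G2/M genes of each member (right, of 20 each, points moved slightly at random, coloured by library). Of 93 members, 60 hold 0 or 1 cycle gene and 21 hold 6 or more.

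The members then fell into 3 main sets. In cycle with fewer than 3 of 7 mature neuron genes (Snap25, Syt1, Snhg11, Meg3, Rbfox3, Stmn3, Nrgn) were 29 members. Neither in cycle nor with 3 such genes were 49, and 11 were out of cycle with at least 3 of them. Another 4 met both criteria, and 8 were too shallow to place. The first set is deeper than the second, with a median of 3442 against 1706 UMIs, and both occurred in all 4 libraries, with 6, 8, 10 and 5 cells against 14, 8, 20 and 7. The sets were made from these cells after the values of the whole were known, so their differences are given as levels with no test.

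Genes of progenitors were compared first. Insm1, a zinc-finger factor of neurogenic progenitors, was higher in the cells in cycle in all 4 libraries, 247 ± 95.2 against 81.3 ± 67.2 CPM (SD over 4 animals). Egfr, the receptor for epidermal growth factor that activated progenitors carry, had 6 UMIs in 5 cells in cycle and 1 UMI in the cells out of cycle. Sox2, a factor of stem and progenitor cells, was higher in cycle in 3 of 4 libraries, 547 ± 259 against 289 ± 126 CPM. The histone gene H2afz, made in dividing cells, averaged 6003 ± 805 against 1445 ± 696 CPM, a ratio of 4.16, and was higher in cycle in 4 of 4.

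Genes of the migrating neuroblast went the other way. Tubb3 (810 ± 200 against 2376 ± 527 CPM) and Stmn2, a growth-cone protein (706 ± 510 against 2401 ± 582 CPM), were lower in cycle in 4 of 4 libraries, and so were Sp8, Meis2, Sox4 and Gad1. The rule used Dcx, Igfbpl1, Dlx6os1, Dlx1 and Dlx2, and a shallow cell passes it only with several of them, which can raise their CPM in the shallower set, so their levels are given without a reading. Dcx averaged 236 ± 173 CPM in the cells in cycle and 897 ± 144 CPM in those out of cycle, Igfbpl1 593 ± 227 and 1691 ± 430 CPM, and Dlx6os1 404 ± 177 and 1401 ± 308 CPM. Dlx2 averaged 835 ± 209 in cycle and 728 ± 93.2 CPM out of it, and Dlx1 704 ± 135 and 789 ± 158 CPM. Ccnd2, a cyclin of neuronal progenitors, was high in both sets, 4385 ± 1080 and 4170 ± 1116 CPM, and Stmn1 also, 5313 ± 529 and 4717 ± 1037 CPM.

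**Figure D4:**
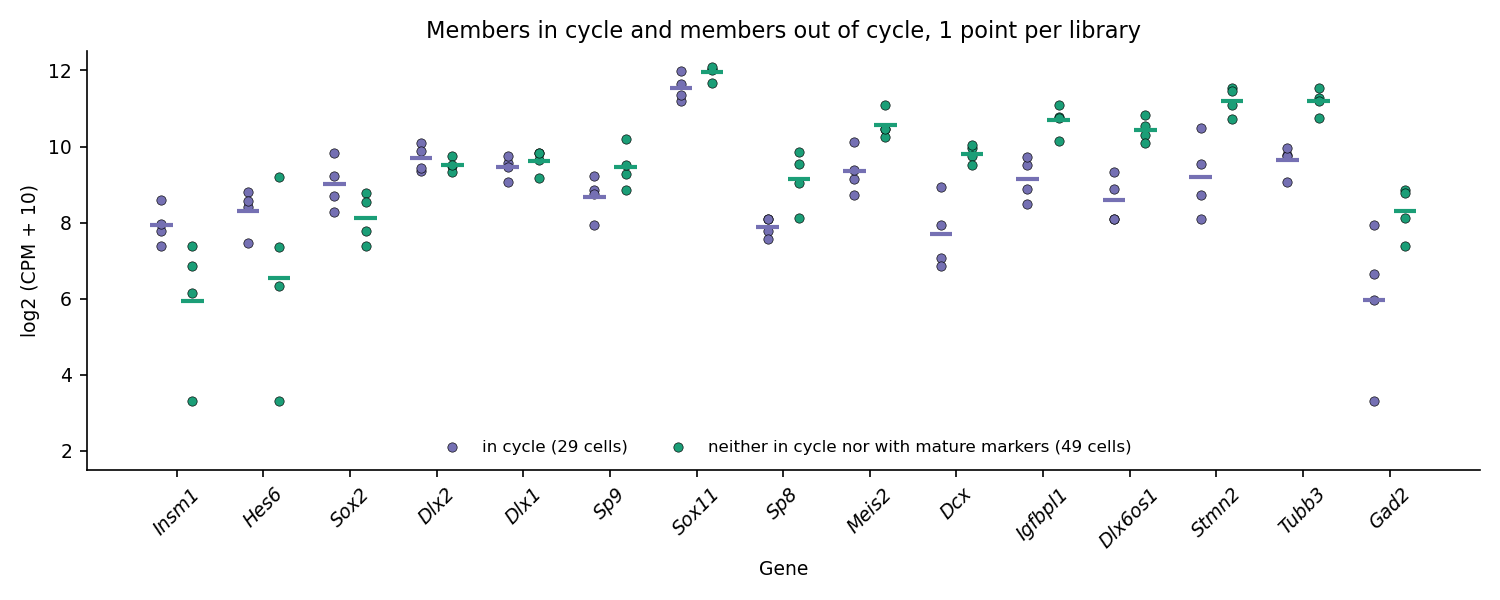
Levels as log2 (CPM + 10) of 15 genes in members in cycle (purple) and in members neither in cycle nor with 3 mature neuron genes (green), with 1 point per library and a line at the mean of the 4 libraries. Insm1 is higher in cycle in every library, and Stmn2 and Tubb3 are lower in cycle in every library. Dlx1, Dlx2, Sox11, Dcx, Igfbpl1 and Dlx6os1 are genes of the rule.

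The 11 cells out of cycle with mature neuron genes had the highest pooled levels of Gad1 and Gad2, 1025 and 645 CPM, against 252 and 362 CPM in the 49 others out of cycle. Snap25 was at 1465 CPM there, by their choice. These cells also held less Sox11, 1465 against 3849 CPM, and less Tubb3, 527 against 2489 CPM. They were unevenly spread, with 6, 2, 3 and 0 cells in the 4 libraries. Gad2 had 22 UMIs in 8 of these 11 cells. A single cell among the 11 held 9374 UMIs, against a median of 2601, so it weighs most in these pooled levels. Over all members, including those in cycle or too shallow to place, 17 held at least 3 of the mature neuron genes. Whether such a droplet holds a late neuroblast or RNA of more than 1 cell was not tested beyond the doublet score.

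Markers of stem cells and of other cell types were summed to check the label. Gfap, Nes, Hes1, Hopx, Prom1 and Id3, which mark neural stem cells or astrocytes, had 1 to 4 UMIs each over all members, and Thbs4 and Lpar1 had 0. Sox2 and Vim, which the same list holds, went the other way. Sox2 had 96 UMIs in 50 members, 419 ± 165 CPM against 307 CPM in astrocytes and 86.1 CPM in all other cells, and Vim, an intermediate filament gene of progenitors and glia, 51 UMIs, 197 ± 86.2 CPM against 128 and 169 CPM. The 16 genes of this list together were at 1267 and 1339 CPM without and 1308 and 1267 CPM with inhibitors, against 11380 CPM in astrocytes. Slc1a3 and Aldoc, both abundant in astrocytes, averaged 164 and 145 CPM in members and 2682 and 3140 CPM in astrocytes. Pdgfra, Cspg4 and Gpr17 (oligodendrocyte precursors), Foxj1 (ependymal cells) and Fcrls (microglia) had 0 UMIs. The sum of the 8 oligodendrocyte precursor genes was nonetheless higher in members, 150 ± 72.6 CPM against 65.1 ± 12.7 CPM in all other cells (SD over 4 animals). It ran from 86.4 to 253 CPM in members and from 55.2 to 82.6 CPM in the others, with 34 UMIs of 3 genes, Cacng4, C1ql1 and Vcan, in 24 members. The 9 microglial genes of a further list summed to 251 to 417 CPM in members and 41513 CPM in microglia. Oligodendrocyte genes summed to 576 to 1191 CPM in members and 9267 CPM in all other cells, endothelial genes to 349 to 544 and 8393 CPM, and erythroid genes to 117 to 374 and 10803 CPM. Astrocyte genes summed to 343 to 906 CPM in members and 16505 CPM in astrocytes. The 7 annotated choroid plexus genes summed to 1450 to 1996 CPM in 3 libraries and 11861 CPM in animal 1 without inhibitors, where 741 of 872 UMIs of Ttr, the transthyretin of the choroid plexus, came from 1 member of 7411 UMIs. The 8 olfactory ensheathing genes summed to 1781 CPM in that animal, above the mean of 1113 CPM in all other cells. In the other libraries they summed to 259, 298 and 63.4 CPM. Of their 135 UMIs in that animal, 120 were Npy from 1 member of 9374 UMIs. The 20 mature neuron genes were also higher in members, 3083 ± 1734 CPM against 922 CPM in all other cells, with 20500 CPM in mature neurons.

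The inhibitor contrast was not used by the rule and was tested. UMIs of the members were summed per animal, to 75794 and 69480 UMIs without and 77232 and 31560 with inhibitors, and compared with the quasi-likelihood test of edgeR. Of 1263 genes with enough UMIs to test, 0 were called higher and 0 lower without inhibitors (0.0% in each direction) where a call needed a log2 fold change beyond 0.58 in size and a p below 0.05 after Benjamini-Hochberg adjustment. At an unadjusted p under 0.05 there were 36 genes (2.85%), 22 higher and 14 lower, and the smallest adjusted p was 0.999. DESeq2 called 0 genes as well, with 0 at an unadjusted p under 0.05. The CPM of the groups did not overlap in 375 of the 1263 genes (29.7%).

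Listed genes were then counted by the sign of their log2 fold change. All 7 rule genes were tested, with log2 fold changes (without over with inhibitors) from -0.27 to 0.16, and Sox11 alone had groups that did not overlap. Of the 9 interneuron-lineage factors tested, 3 were above 0 and 6 below, with a median of -0.23. Of the 12 cytoskeletal genes, 7 were above 0 and 5 below, with a median of 0.05. All 5 S-phase genes tested were below 0, with a median of -0.29, and of 9 G2/M genes 5 were above and 4 below, with a median of 0.06. All 4 mature neuron genes tested were above 0, with a median of 0.26. The 20 genes of that list summed to 5581 and 1828 CPM without and 2926 and 1996 CPM with inhibitors, so the groups overlapped. Medians were 0.65 for 3 genes of GABA synthesis and transport, -0.21 for 5 of migration and adhesion, -0.44 for 5 of stem cells and glia, -0.34 for 3 immediate early genes and 0.01 for 5 histone genes. Over all 1263 genes, 629 were above 0 and 634 below, with a median of -0.0013, and 0 genes of any list were called.

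The 10 genes of smallest unadjusted p are given by name, none of them called. Hspa8, the constitutive heat shock protein of 70 kilodaltons, stood at 1530 and 2130 CPM without and 1178 and 1014 CPM with inhibitors. Its log2 fold change was 0.69 (SE 0.23, edgeR unadjusted p = 0.00270, adjusted p = 0.999), and 0.16 with cells in cycle left out. Top2a followed at 449 and 835 against 168 and 412 CPM, with a log2 fold change of 1.26 (SE 0.42). Meis2 stood at 844 and 835 against 1152 and 1458 CPM (-0.63, SE 0.26), and Bcl11b, a zinc-finger factor of neurons, at 106 and 72.0 against 272 and 158 CPM (-1.37, SE 0.59). Mrps14, Atp5g3, Tecr and Gpx4 had log2 fold changes of 1.55, 1.83, 1.21 and 0.97, and the ferritin gene Ftl1 one of -0.44. Slc1a2, the astrocytic glutamate transporter, was at -1.25, and 22 of its 31 UMIs in animal 1 with inhibitors came from 1 cell. Its log2 fold change was -0.20 in members with at least 4 of the 7 rule genes, and -0.04 in those with no excluded gene.

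The study's question was which transcripts enzymatic dissociation induces in brain cells, so its activation genes were examined in the members. Of a consensus list of 25 genes found in sorted microglia of other animals, 16 had at least 1 UMI in the members and 4 could be tested. They were Hsp90aa1 (log2 fold change 0.46), Hist1h2bc (0.24), Jun (0.05) and Jund (-0.47), with a median of 0.14. Of these 4, 0 were called and 0 had an unadjusted p under 0.05 in edgeR. Rgs1, Ccl3, Ccl4, Hspa1b, Atf3, Gem, Nfkbiz, Nfkbid and Hist2h2aa1 had 0 UMIs. Of a second list of 19 genes, which the study chose on these same libraries so that it is not independent evidence, 15 had a UMI and only Jun could be tested. The UMIs of this whole second list per member at a depth of 1000 were 0.962 and 0.762 without and 0.412 and 0.417 with inhibitors. The groups did not overlap. The means were 0.862 ± 0.141 and 0.414 ± 0.00347 (SD, n = 2 each; exact permutation test, two-sided, p = 0.333). The sums over the list were 726 and 633 against 453 and 317 CPM.

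Counts of most single immediate early genes were small in members of every library. The 23 listed genes together averaged 1094 CPM in members, against 565 CPM in astrocytes, 1427 CPM in mature neurons and 4405 CPM in microglia. These means pool the groups. Without and with inhibitors, the means were 1126 and 1061 CPM in members and 7390 and 1420 CPM in microglia. They were 586 and 544 CPM in astrocytes and 1612 and 1242 CPM in mature neurons. Among the 23 genes, Jund had 24 and 19 UMIs without and 34 and 11 with inhibitors. Fos, a subunit of the AP-1 factor, had 5 UMIs in 2 cells of animal 1 without inhibitors and 0 in the other 3 libraries. At the level of microglia in the same libraries, the members without inhibitors would have held 88.9 UMIs of Fos. Jun, its partner, had 12 and 9 UMIs without and 11 and 4 with inhibitors, that is 158, 130, 142 and 127 CPM, so the 4 libraries overlapped. Junb had 6, 0, 2 and 0 UMIs, against 180 at the microglial level without inhibitors. Egr1, a zinc-finger factor induced by activity, had 3, 7, 1 and 0 UMIs. At the microglial level the animals without inhibitors would have held 11.4 and 4.29 UMIs of it, so animal 2 lay above that level. Dusp1, a phosphatase that ends MAP kinase signals, had 4, 2, 1 and 1 UMIs. Ier2 had 6, 0, 1 and 1, and Btg2, an antiproliferative gene also on the list of transit-amplifying progenitors, 4, 9, 6 and 1. Zfp36, which destabilises AU-rich RNAs, and the inducible heat shock gene Hspa1a each had 1 UMI, in animal 2 without inhibitors, and Atf3 had 0. Hspa1a and Hspa1b are near-identical copies, and histone genes are as well, so which copy a UMI came from is uncertain.

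Per cell at 1000 UMIs, members held a mean of 2.12 and 1.90 consensus-list UMIs without inhibitors, and 1.56 and 1.75 with them. The groups did not overlap, and their means were 2.01 ± 0.149 and 1.65 ± 0.135 UMIs (SD, n = 2 each; exact permutation test, two-sided, p = 0.333, the smallest that 2 animals against 2 allow). The difference of 0.356 UMIs fell to 0.144, and the groups overlapped, when only the 81 members without an excluded gene were used. In the 60 members out of cycle, the means were 2.25 and 1.10 UMIs without and 1.43 and 1.57 with inhibitors, so the groups overlapped too. Before thinning, Hsp90aa1 had 129 UMIs without and 65 with inhibitors, of 499 UMIs of the whole list in members. Microglia, picked by at least 3 of 6 marker genes, held 11.4 and 7.93 UMIs without and 2.65 and 2.13 with inhibitors. Astrocytes held 1.42 and 1.92 against 1.65 and 1.56, and mature neurons 1.58 and 2.04 against 1.49 and 1.77. Over the 4 libraries, members ran from 1.56 to 2.12 UMIs and astrocytes and neurons from 1.42 to 2.04, so that 1 library of members lay above all those of astrocytes and neurons. Every library of microglia lay above every library of members.

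**Figure D5:**
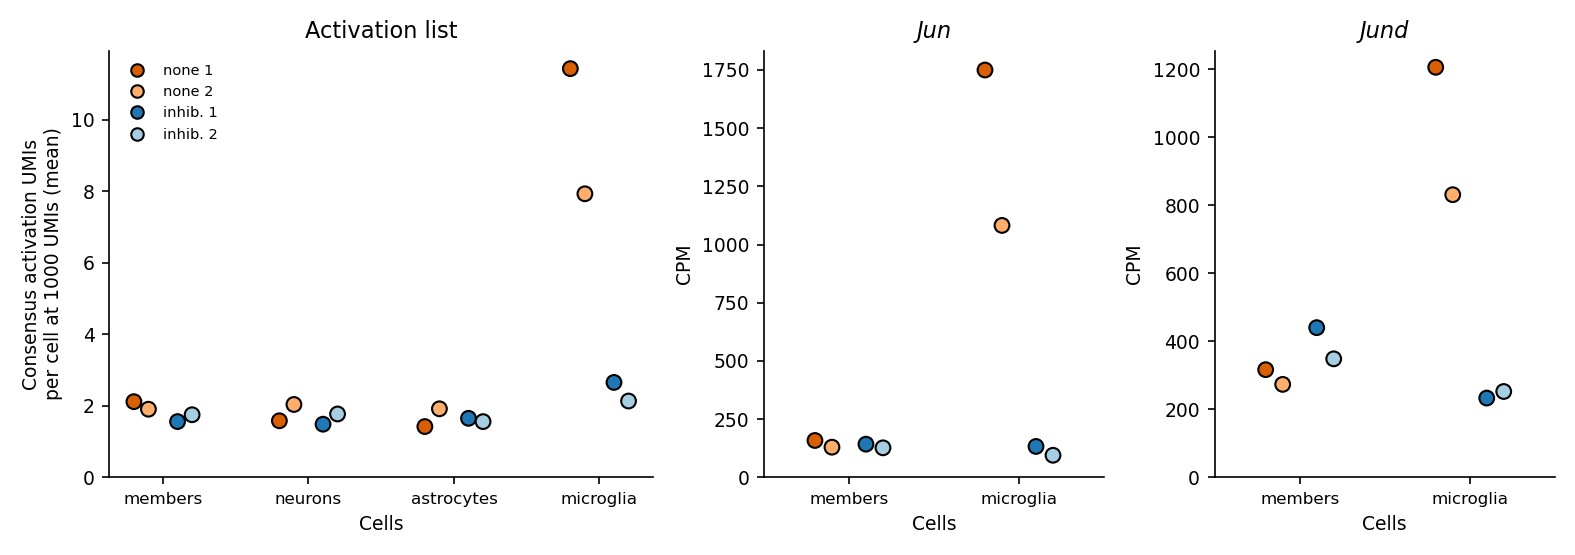
Mean UMIs of the 25 consensus activation genes per cell at 1000 UMIs in members and 3 comparison classes (left), and CPM of Jun (middle) and Jund (right) in members and microglia, with 1 point per library. Members hold 1.56 to 2.12 UMIs of the list in all 4 libraries, whereas microglia without inhibitors hold 7.93 and 11.4.

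Whether the effect of the inhibitors differed between the members and another class was tested directly with edgeR, as an interaction with the animal as a block. Against microglia, 3 of 8662 genes were called (0.0346%). For Jun the effect in members was lower than in microglia by a log2 value of -3.48 (SE 0.64, adjusted p = 2.11e-04), since Jun stood at 1416 ± 472 CPM in microglia without and 114 ± 26.8 CPM with inhibitors (SD, n = 2 each). For Jund, another Jun family member, the difference was -2.49 (SE 0.45, adjusted p = 2.11e-04), with 317 and 273 CPM in members without and 440 and 349 CPM with inhibitors, against 1019 ± 265 and 243 ± 13.7 CPM in microglia. Without animal 1 of the group with no inhibitors, the differences were -3.22 and -2.27, with edgeR adjusted p values of 0.191 for Jun and 0.408 for Jund. Without animal 1 of the group with inhibitors they were -3.41 and -1.94, with an adjusted p of 0.990 for both. The differences thus kept their sign, and the calls were lost. The third gene, Snhg11, a neuronal non-coding RNA, differed by 3.40 (SE 0.78, adjusted p = 0.0376), and 38 of its 58 UMIs in members came from 1 cell.

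Other activation genes were not called. Hsp90aa1, a heat shock protein with 194 UMIs in members, differed from microglia by -0.49 (SE 0.41), and Btg2 by -0.91 (SE 0.81). The difference was -3.72 (SE 1.66) for Dusp1, -2.11 (SE 0.74) for Ier5, -1.82 (SE 1.49) for Ier2 and -1.72 (SE 2.04) for Egr1, each with an edgeR adjusted p of 1.0. Against astrocytes, 1 of 8937 genes was called (0.0112%). It was Npy, a neuropeptide of some interneurons, with a difference of 3.32 (SE 0.55, adjusted p = 1.40e-05), and 120 of its 136 UMIs in members came from 1 cell of 9374 UMIs in animal 1 without inhibitors. Against mature neurons, edgeR called 0 of 2594 genes (0.0%).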

How the data were processed

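Per the labels and the study's methods, the authors made the deposited UMI counts per gene and barcode with bcl2fastq and Cell Ranger 3.0.0 on mm10, and Seurat was used later. Coordinates come from GENCODE M21. The deposited matrices held 12487 barcodes and 31053 genes. The members, gene lists and tests were chosen with earlier results of these data known.

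Cells were filtered and picked as stated above. CPM is UMIs of a gene per 1000000 UMIs of the summed cells. Comparison classes needed at least 3 detected markers: Tmem119, P2ry12, Cx3cr1, Fcrls, Siglech, Selplg (microglia, 3319 cells), Aqp4, Gja1, Slc1a2, Fgfr3, Ntsr2, Slc4a4 (astrocytes, 2036), or Snap25, Syt1, Snhg11, Meg3, Rbfox3, Stmn3, Nrgn (mature neurons, 263), with at most 1 marker of other classes. Doublets were scored with 2 simulated doublets per cell and 20 neighbours, and kept in the main values.

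Sums per animal were tested in edgeR 4.0.16 (R 4.3.3; filterByExpr, TMM, robust quasi-likelihood F test, group alone), with DESeq2 1.42.0 as an alternative. The SE is the log2 fold change divided by the square root of F. Scripts used Python 3.11.15, numpy 2.4.6 and scipy 1.17.1, and the tests were tried on simulated data. Each library was 1 animal, so p-values measure the spread between 2 animals in each group. Binomial intervals cover counting error only.

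Named genes were the 10 of smallest p (0 being called), the rule genes, up to 4 of the highest CPM in each list, 10 activation genes and the 20 of largest ratio. Any other gene named, such as Egfr, Stmn2, Ccnd2 and those at or near 0, was chosen after its values were seen. Some genes that the rule would name are not reported here. Alternatives were another tool, scaling, filter, membership or depth, and leaving out each animal.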

Additional observations from a re-analysis of the deposited data

Results flagged for a closer look

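In 4 genes the inhibitor effect differed between the members and another class by the edgeR interaction test, which is why they are listed here. Against microglia these were Jun, with a difference of -3.48 on the log2 scale (adjusted p 2.11e-04), Jund with -2.49 (adjusted p 2.11e-04) and Snhg11 with 3.40 (adjusted p 0.0376). Against astrocytes it was Npy with 3.32 (adjusted p 1.40e-05). The log2 fold changes of Jun and Jund were 0.05 and -0.47 in members and 3.69 and 2.11 in microglia. Their adjusted p ran from 6.88e-05 to 0.990 for Jun and from 4.77e-05 to 0.990 for Jund over the alternatives, while the differences ran from -3.63 to -3.22 and from -2.79 to -1.94 over left-out animals. Snhg11 and Npy rest on a single member of 9374 UMIs with all 7 mature neuron genes, in animal 1 without inhibitors. Without the 2 members of over 9000 UMIs, the differences were 1.6 and -1.82, with an edgeR adjusted p of 1.0 for both.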

How the results depend on the processing

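With 14 to 35 members per animal, most of the 11663 genes with a UMI in members were too sparse to test, so an uncalled gene may still differ. The count of 0 calls between groups held under DESeq2, under RLE normalization and with no filter on low counts (0 of 11663 genes, 197 at an edgeR unadjusted p under 0.05, and the median of all genes at 0.12). With the replicate block, edgeR called 1 gene higher, Npy, and 0 lower. The samples share only a number, and deviations from the group means of same-numbered samples correlated at 0.301 over 1263 genes. Leaving out each animal gave 0 to 7 genes higher and 0 to 2 lower, the 7 and 2 without animal 2 without inhibitors (Mdk, Dut, Snhg11, Npy, Nrsn1, Sncb, Id2, Meg3 and Ttr), where the lone sample is assumed to vary like the others. The consensus-list median of 0.14 was 0.75 with no filter (16 genes). It was 0.61 in members with fewer than 2 cycle genes at full depth (1 gene). Over left-out animals it ran from -0.18 to 0.22, below 0 without animal 1 without inhibitors and without animal 2 with inhibitors (-0.15). The difference in activation UMIs per member was 0.144 in members with no excluded gene, 0.202 at 500 UMIs, where depth is lower by construction, and 0.250 to 0.461 over left-out animals. Interaction calls against microglia were 5 under RLE normalization (with Nnat and Ccnd2) and 0 to 5 over left-out animals, with 0 without animal 1 with inhibitors. Those against astrocytes were 0 without members of over 9000 UMIs, where the Npy difference turned to -1.82, and 0 to 3 over left-out animals, and those against neurons 0 to 1. The alternative without members of over 9000 UMIs and the one without members holding 3 mature neuron genes were chosen after seeing the data, as was leaving out animals in the interaction. The differences in share of cells (-0.598 to 0.562 percentage points) and in share in cycle (-13.9 to 15.4) changed sign with the animal left out. Except where stated, the cause was not tested.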

Other observations

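Further genes of surface and cytoskeleton were lower in the members in cycle than in the 49 members neither in cycle nor with 3 mature neuron genes, in all 4 libraries and with no test. The tubulin gene Tubb2b averaged 1103 ± 305 against 2420 ± 771 CPM (SD over 4 animals), and Ncam1 831 ± 224 against 1529 ± 373 CPM. Gsx2, a homeobox factor of ventral forebrain progenitors, had 9 UMIs in 5 of the 29 members in cycle and 0 UMIs in the 49 others. Pax6, a factor of progenitors and of dopaminergic bulb neurons, was alike in level, 225 ± 73.8 against 209 ± 108 CPM.

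Some neuronal genes rested on single members of animal 1 without inhibitors. Of the 421 UMIs of Meg3, 83 came from the member of 9374 UMIs. The 3 UMIs of Calb2, the calretinin gene of bulb interneurons, came from 1 member of 2876 UMIs, which also held 3 of the 5 Fos UMIs.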
